A study of Mus musculus with 2 samples.

Results

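Platelet-derived growth factor (PDGF), vascular endothelial growth factor (VEGF) and Kit signalling was followed in the nuclei of embryonic day 7.0 (E7.0) mouse embryos through 8 genes: the ligands Pdgfa, Pdgfc, Vegfa, Vegfc and Kitl, and the receptors Pdgfra, Pdgfrb and Kit. The genes were taken by symbol from the 32285 genes of the deposited matrix, together with the 139 of 229480 accessibility peaks that overlap a window of 50 kb to each side of their starts. The study was a 10x multiome assay, in which nuclear RNA and open chromatin are read from the same nuclei. It comprised 2 samples, the RNA reading and the accessibility reading of 1 pool of E7.0 embryos. There was 1 library per assay, the files used here assign no barcode to an embryo, and no treatment or mutant was compared, so all comparisons below are between populations of nuclei and carry counting error only, with no test between embryos.

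The labels were not of one kind: E7.0 embryos stand in the titles, in the age field and in the protocol, whereas the tissue was given as a section of the small intestine for the RNA and as distal colon for the accessibility, the cell type as goblet cells and the strain as RedMUC298trTg. Defining markers of goblet cells were close to absent: in the 12796 nuclei kept, Muc2 had 17 UMIs, Tff3 6, Clca1 5, Agr2 12 and Spink4 33. Of 9 gut markers, Vil1 alone was frequent (3994 UMIs, highest in a population led by Sfrp5), and Vil1 is also known from visceral endoderm. The groups below are therefore called by the embryonic markers they carry.

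PDGF receptors, VEGF receptors and Kit are receptor tyrosine kinases, which pair and phosphorylate each other when a secreted or membrane-bound ligand joins them. Pdgfa and Pdgfc encode ligands of the receptor made from Pdgfra, which is known in the early embryo as a receptor of mesoderm and primitive endoderm. Vegfa binds the receptors Kdr and Flt1, and Vegfc, once its precursor is cut by Adamts3 with the help of Ccbe1, binds Flt4 and Kdr; both ligands are known for vessel growth. Kitl, also called stem cell factor, is the ligand of Kit, which is known from germ cells, blood progenitors and melanocytes.

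The promoters of the 7 genes with a sequence differ in their CG content, and 4 of them are shown for that contrast. Sequences are from RefSeq (GRCm38.p6), where 7 of the 8 genes, all but Pdgfrb, had a promoter entry. They run 5′ to 3′ on the strand of the gene, with each CG in capitals. Those of Vegfa, Pdgfc and Vegfc run up to the RefSeq start. That of Kit stops at the lowest start given in the deposited matrix, which lies before its RefSeq start at 75574987. The Vegfa sequence is chr17:46032378-46032627 on the minus strand, that of Kit chr5:75574737-75574915, that of Pdgfc chr3:81036166-81036415 and that of Vegfc chr8:54077282-54077531, the last 3 on the plus strand. A stretch of 30 bases from Kitl (chr10:100015784-100015813, plus strand) is shown because it holds the letters TATAAA, in capitals.
Vegfa: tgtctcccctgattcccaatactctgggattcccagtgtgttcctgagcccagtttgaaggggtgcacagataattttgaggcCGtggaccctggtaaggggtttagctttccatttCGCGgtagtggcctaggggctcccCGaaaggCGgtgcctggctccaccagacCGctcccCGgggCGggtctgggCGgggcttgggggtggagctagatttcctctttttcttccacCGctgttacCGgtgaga
Kit: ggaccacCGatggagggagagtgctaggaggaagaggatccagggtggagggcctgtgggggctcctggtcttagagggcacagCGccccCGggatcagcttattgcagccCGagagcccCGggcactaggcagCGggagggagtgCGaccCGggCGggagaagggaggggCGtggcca
Pdgfc: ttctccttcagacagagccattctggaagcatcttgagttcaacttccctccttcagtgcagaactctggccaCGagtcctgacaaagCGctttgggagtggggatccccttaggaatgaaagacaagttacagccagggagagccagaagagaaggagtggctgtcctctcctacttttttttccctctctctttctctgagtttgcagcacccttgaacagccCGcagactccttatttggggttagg
Vegfc: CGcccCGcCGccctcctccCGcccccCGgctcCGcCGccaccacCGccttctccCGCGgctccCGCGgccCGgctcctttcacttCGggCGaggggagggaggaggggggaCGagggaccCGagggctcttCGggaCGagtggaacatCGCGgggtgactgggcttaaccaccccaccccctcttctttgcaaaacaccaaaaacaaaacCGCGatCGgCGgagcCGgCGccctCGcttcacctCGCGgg
Kitl: gggagggagctgTATAAAaagcgctggcgg
The Vegfc sequence holds 30 CG and the Pdgfc sequence of the same length 3. In the window of 300 bases around the start, the ratio of observed to expected CG was 0.959 for Vegfc, 0.794 for Kitl, 0.353 for Pdgfc and 0.256 for Pdgfra, against a median of 0.384 over 32841 promoter windows. Of 6 motifs searched on both strands, the GC box GGGCGG, held by 35.7% of all windows, was found at Pdgfa, Vegfa, Vegfc, Kit and Kitl. The TATA box core TATAAA (13.6% of windows) and the ETS core CCGGAA (14.9%) were found at Kitl. The GATA core AGATAA (11.2%) and the hypoxia response core ACGTG (19.6%) were each found at 1 of the 2 Vegfa entries, and the SOX core ACAAAG (18.7%) at Pdgfc. None of the 6 was found at Pdgfra. These matches describe the letters and are not evidence of binding.

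The matrix held 15341 barcodes, shared by both assays, with 182201512 UMIs (unique molecular identifiers, each standing for 1 RNA molecule) and 273131304 peak counts, and 12796 nuclei were kept, with medians of 10471 UMIs, 4221 genes and 17350 peak counts. RNA levels were read mainly in populations clustered from the peaks, and accessibility in populations clustered from the RNA. The clustering itself thus did not use the reading compared, but the naming did use RNA. Peak clusters with the same name were joined. The Sfrp5-led cluster was set apart because Sfrp5 was among its leading genes by RNA, as was Kitl. The populations were named from marker lists that hold none of the 8 genes. The 11 populations set apart from the peaks were epiblast-like (2889 nuclei), extraembryonic ectoderm-like (1390), visceral endoderm-like (1070), primitive streak-like (1048), embryonic mesoderm-like (964), a cluster led by Sfrp5 (946), anterior streak, node and definitive endoderm-like (895, called anterior streak-like below), extraembryonic mesoderm-like (697), haemato-endothelial progenitor-like (356), parietal endoderm-like (244), and ectoplacental cone and giant cell-like (177, called ectoplacental cone-like below). The 2 clusters left unnamed (1943 and 177 nuclei) had median depths of 3875 and 6629 UMIs, against 9981 to 13990 in the named ones. Of the nuclei of the Sfrp5-led cluster, 47.2% fell in the RNA cluster led by Sfrp5 and 51.6% in visceral endoderm-like RNA clusters. Only 0.211% fell in the anterior streak, node and definitive endoderm-like RNA cluster. Of the 11 markers on that list, however, 7 were at least 2-fold raised in the Sfrp5-led cluster (7.66% of all genes were). Their list summed to 956 CPM there, against 2045 CPM in anterior streak-like nuclei. Also raised there were 6 of the 9 parietal endoderm markers and 9 of the 11 visceral endoderm markers. Of the parietal endoderm-like nuclei, 52.1% fell in the RNA cluster of that name and 45.5% in visceral endoderm-like RNA clusters. Extraembryonic mesoderm-like nuclei had no RNA population of their own: 50.5% fell in embryonic mesoderm-like and 39.2% in haemato-endothelial progenitor-like RNA clusters. Primitive streak-like nuclei had none either. Of these, 59.5% fell in epiblast-like RNA clusters and 30.7% in an unnamed RNA cluster led by Zbbx, Cfap44 and Spef2. The summed level of the 11 visceral endoderm markers, none at 0, was 16110 CPM in visceral endoderm-like, 13380 CPM in Sfrp5-led and 8599 CPM in parietal endoderm-like nuclei, and from 1032 to 2443 CPM in the other named populations.

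Every one of the 8 genes was at least 2-fold higher in at least 1 population than in all other nuclei, and each was at least 2-fold lower in at least 1. Over the 17686 genes with at least 50 UMIs, 49.6% were that much higher in some population and 64.6% that much lower. By population, 3 of the 8 were higher in parietal endoderm-like nuclei (9.72% of all genes tested were) and 3 in extraembryonic mesoderm-like nuclei (6.12%). The count was 2 in visceral endoderm-like (9.83%), Sfrp5-led (7.66%), haemato-endothelial progenitor-like (7.13%), embryonic mesoderm-like (5.96%) and anterior streak-like nuclei (5.67%), and 1 in epiblast-like (8.0%), ectoplacental cone-like (7.53%) and extraembryonic ectoderm-like nuclei (7.09%). In primitive streak-like nuclei it was 0, at a share of 3.06% over all genes. At least 2-fold lower were 6 of the 8 in ectoplacental cone-like (28.4% of all genes), visceral endoderm-like (26.4%) and extraembryonic ectoderm-like nuclei (25.6%), and 5 in parietal endoderm-like (24.4%) and epiblast-like nuclei (12.2%). The count was 4 in the Sfrp5-led cluster (21.9%), 3 in embryonic mesoderm-like (16.1%) and primitive streak-like nuclei (12%), 2 in haemato-endothelial progenitor-like nuclei (17.6%), and 1 in extraembryonic mesoderm-like (15.1%) and anterior streak-like nuclei (11.1%).

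**Figure D1:**
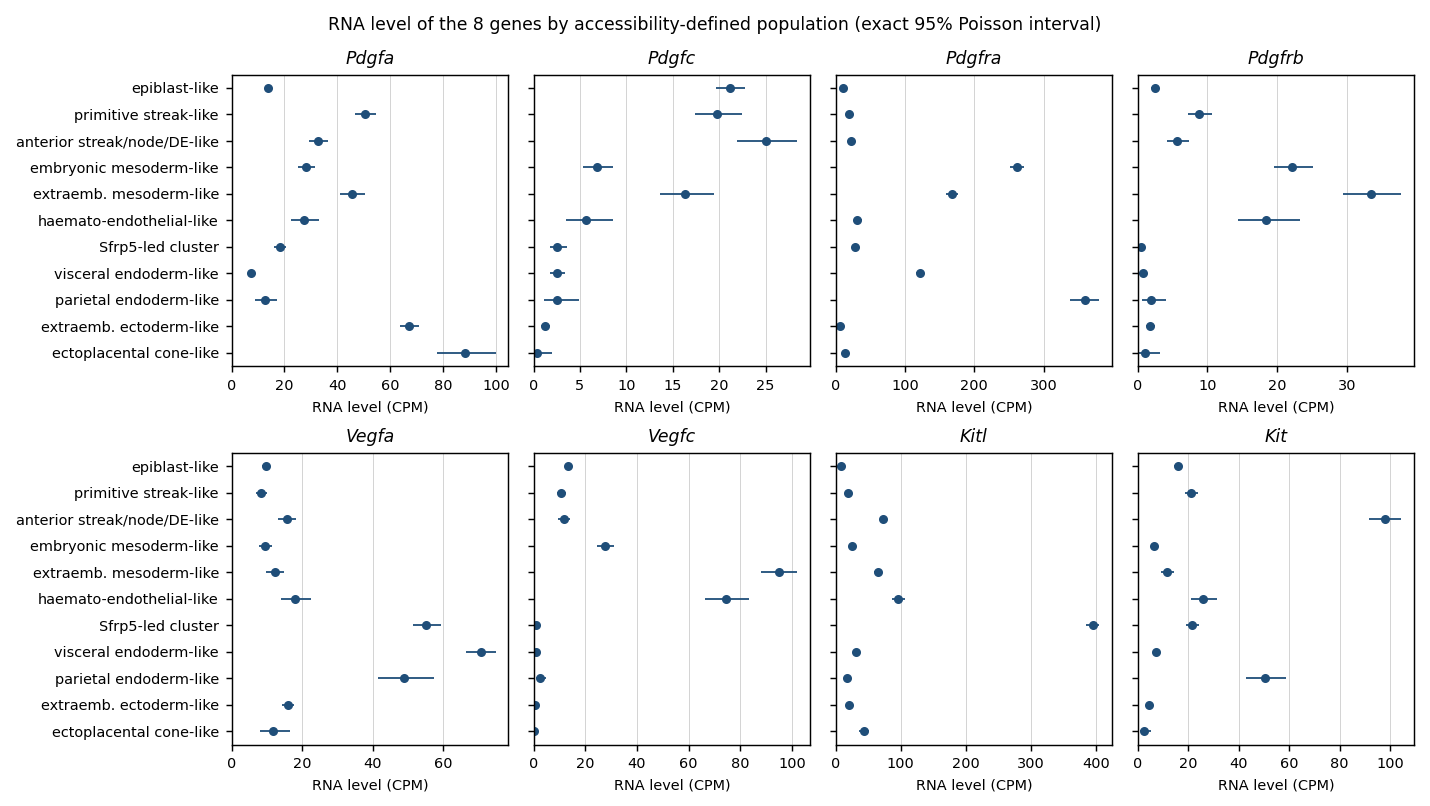
RNA level of each of the 8 genes (CPM, linear axes that start at 0 and differ between genes; bars are 95% Poisson intervals of the count) in the populations clustered from the peaks, 1 library. Kitl stands at 394 CPM in the Sfrp5-led cluster against 9.01 in epiblast-like nuclei, and Pdgfra at 359 in parietal endoderm-like against 5.74 in extraembryonic ectoderm-like nuclei.

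Levels are given as CPM, the UMIs of a gene per 1000000 UMIs of the population, with exact 95% Poisson intervals, and they are compared between populations and not between genes. Among the PDGF ligands, Pdgfa (ENSMUSG00000025856, chr5:138994953-138997370 for its starts, minus strand) was highest in the trophoblast populations. It stood at 88.2 CPM (77.5 to 99.9) in ectoplacental cone-like nuclei and 67.2 CPM in extraembryonic ectoderm-like nuclei, then at 50.4 CPM in primitive streak-like and 45.6 CPM in extraembryonic mesoderm-like nuclei, a neighbouring pair whose ratio of 1.11 had an interval that includes 1. The lowest levels were 13.8 CPM in epiblast-like, 12.5 CPM in parietal endoderm-like and 7.38 CPM in visceral endoderm-like nuclei. Pdgfa was thus 2.99-fold (2.62 to 3.40) and 2.67-fold (2.50 to 2.85) higher in the trophoblast populations than in all other nuclei. Its level in primitive streak-like nuclei was 3.64-fold that in epiblast-like nuclei and was lower again in embryonic mesoderm-like nuclei, at 0.558 of the primitive streak-like level. A UMI was found in 52.5% of ectoplacental cone-like nuclei (median depth 12515 UMIs) and in 8.51% of visceral endoderm-like nuclei (median 12528.5). The start of 6330403L08Rik overlaps this locus, and whether the counting used strand is not given in the sources used here.

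Pdgfc (ENSMUSG00000028019, chr3:81036416, plus strand) had another distribution. It was highest in anterior streak-like nuclei at 25 CPM (22 to 28.4), followed by epiblast-like nuclei at 21.2 CPM and primitive streak-like nuclei at 19.8 CPM, the last pair within counting error of each other. Extraembryonic mesoderm-like nuclei held 16.3 CPM and embryonic mesoderm-like nuclei 6.83 CPM, while the endodermal and trophoblast populations stood between 0.359 CPM, a count of 1 UMI in ectoplacental cone-like nuclei, and 2.57 CPM in the Sfrp5-led cluster. The epiblast-like population held 40.9% of all Pdgfc UMIs, with 22.3% of the UMIs of all genes. A UMI of Pdgfc was present in 18.1% of anterior streak-like nuclei (median depth 9981 UMIs) against 0.565% of ectoplacental cone-like nuclei (median 12515). In the populations from the peaks, the PDGF ligand genes were therefore highest in different places, Pdgfa in the trophoblast ones and Pdgfc in the anterior streak-like one. In the populations from RNA, both were highest in a small primordial germ cell-like cluster, Pdgfa at 127.4 CPM and Pdgfc at 27.3 CPM. For Pdgfc the interval (20.5 to 35.5) overlapped that of anterior streak-like nuclei, at 23.8 CPM (20.2 to 27.8). By the peaks, 45.2% of the nuclei of the primordial germ cell-like cluster were primitive streak-like and 33.7% extraembryonic mesoderm-like.

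The receptor gene Pdgfra (ENSMUSG00000029231, starts chr5:75152292-75155899, plus strand) was high in 4 populations from 2 lineages. It reached 359 CPM (339 to 381) in parietal endoderm-like, 262 CPM in embryonic mesoderm-like, 168 CPM in extraembryonic mesoderm-like and 122.0 CPM in visceral endoderm-like nuclei. Each of these neighbours was apart by more than counting error, and the next named population, haemato-endothelial progenitor-like, stood at 31.5 CPM. Levels were 10.5 CPM in epiblast-like and 5.74 CPM in extraembryonic ectoderm-like nuclei. The folds over all other nuclei were 6.13 (5.76 to 6.52), 5.35 (5.12 to 5.59), 2.82 and 2.09 in the order given. The parietal endoderm-like fold was 3.23 at a clustering resolution of 0.5 and 3.39 with the 8 genes, the pathway genes and their peaks left out of the clustering.

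Pdgfra differed between neighbouring populations. Embryonic mesoderm-like nuclei stood at 13.4-fold the primitive streak-like level and 24.9-fold (22.2 to 27.9) the epiblast-like level. Within mesoderm it was lower in haemato-endothelial progenitor-like nuclei, at 0.188 of the extraembryonic mesoderm-like level. Within endoderm the Sfrp5-led cluster, at 28.4 CPM, held 0.233 (0.208 to 0.260) of the visceral endoderm-like level. A UMI was present in 91.0% of parietal endoderm-like nuclei (median depth 11307 UMIs) and 85.1% of embryonic mesoderm-like nuclei (median 10947.5), against 6.55% of extraembryonic ectoderm-like nuclei (median 12464). After each nucleus was thinned to 5000 UMIs, the first 2 shares were 77.3% and 66.6%.

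Pdgfrb (ENSMUSG00000024620, starts chr18:61045150-61045200, plus strand), the receptor known from pericytes and other mural cells, was sparse, with 981 UMIs in the nuclei kept. It was highest in extraembryonic mesoderm-like nuclei at 33.4 CPM (29.5 to 37.8), then in embryonic mesoderm-like nuclei at 22.2 CPM and haemato-endothelial progenitor-like nuclei at 18.4 CPM, the last pair not apart by more than counting error. Primitive streak-like nuclei held 8.81 CPM and epiblast-like nuclei 2.46 CPM. The endodermal populations, of which visceral and parietal endoderm-like nuclei were high in Pdgfra and the Sfrp5-led cluster low, had almost no Pdgfrb: 11 UMIs in visceral endoderm-like nuclei (0.718 CPM), 7 in the Sfrp5-led cluster (0.500 CPM) and 6 in parietal endoderm-like nuclei (1.88 CPM). In both mesoderm-like populations both receptor genes were present. Over all nuclei kept, 444 held a UMI of each, where 352.6 would if the genes were unrelated within each population.

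Among the VEGF ligands, Vegfa (ENSMUSG00000023951, starts chr17:46031356-46032369, minus strand) was highest in the endodermal populations. It stood at 70.6 CPM (66.5 to 75.0) in visceral endoderm-like nuclei, 55.2 CPM in the Sfrp5-led cluster and 48.9 CPM in parietal endoderm-like nuclei, of which the last pair had a ratio of 1.13 with an interval that includes 1. All 8 other named populations lay between 8.35 CPM in primitive streak-like and 17.9 CPM in haemato-endothelial progenitor-like nuclei. The folds over all other nuclei were 3.87 (3.60 to 4.16), 2.70 and 2.11. A UMI of Vegfa was present in 56.7% of visceral endoderm-like nuclei (median depth 12528.5 UMIs) and in 9.13% of embryonic mesoderm-like nuclei (median 10947.5). Visceral endoderm-like nuclei held 31.2% of the UMIs of Vegfa with 10.5% of all UMIs.

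Vegfc (ENSMUSG00000031520, starts chr8:54077606-54077779, plus strand) was highest in mesodermal populations. Extraembryonic mesoderm-like nuclei held 94.9 CPM (88.1 to 102.0) and haemato-endothelial progenitor-like nuclei 74.5 CPM, followed by embryonic mesoderm-like nuclei at 27.8 CPM and epiblast-like nuclei at 13.3 CPM. The endodermal and trophoblast populations stood at 2.51 CPM or lower, and no UMI was counted in the 177 ectoplacental cone-like nuclei, which allows up to 1.08 CPM by the limit of 3 counts and 1.32 CPM by the 95% Poisson interval. The folds over all other nuclei were 8.60 (7.87 to 9.40) in extraembryonic mesoderm-like and 5.38 (4.74 to 6.09) in haemato-endothelial progenitor-like nuclei. A UMI was found in 40.6% of extraembryonic mesoderm-like nuclei (median depth 10529 UMIs) and 0.791% of extraembryonic ectoderm-like nuclei (median 12464). The highest Vegfa and the highest Vegfc thus stood in different populations, endodermal for the first and mesodermal for the second.

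The VEGF receptors, taken from the list of other pathway genes, differed from each other: Kdr and Flt4 were highest in haemato-endothelial progenitor-like nuclei, where Vegfc was also high, and Flt1 was high in 3 populations. Kdr, the main signalling receptor of blood vessel precursors, stood at 528.6 CPM in haemato-endothelial progenitor-like, 227 CPM in extraembryonic mesoderm-like and 104.8 CPM in embryonic mesoderm-like nuclei, and at 5.22 CPM in visceral endoderm-like nuclei. Flt4, the receptor best known from lymphatic vessels, was at 36.3 CPM in haemato-endothelial progenitor-like nuclei and at most 2.85 CPM in every other named population. Flt1, a high-affinity receptor that also exists in a soluble form, had another pattern, with 623 CPM in parietal endoderm-like, 622 CPM in haemato-endothelial progenitor-like and 485 CPM in anterior streak-like nuclei, against 48.6 CPM in visceral endoderm-like and 41.3 CPM in extraembryonic mesoderm-like nuclei, the population with the most Vegfc. Adamts3, the protease that activates the Vegfc precursor, was highest in the same mesodermal populations as Vegfc, at 158.9 CPM in haemato-endothelial progenitor-like and 140.6 CPM in extraembryonic mesoderm-like nuclei. Ccbe1, its cofactor, was instead highest in visceral endoderm-like nuclei at 39.5 CPM and parietal endoderm-like nuclei at 24.8 CPM, and stood at 0.512 CPM in haemato-endothelial progenitor-like nuclei.

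Nuclei with a UMI of both a ligand and a receptor were counted. Of the 1305 nuclei with a UMI of Vegfc, 578 also held Kdr, where 220.1 would if the genes were unrelated over all nuclei and 459.8 if unrelated within each population. Vegfc and Flt4 were found together in 54 nuclei, against 32 over all nuclei and 58.9 within populations, and after thinning to 5000 UMIs in 8, against 8.94 and 16.7. For Vegfa and Kdr the count was 355, against 401.7 over all nuclei and 318.3 within populations. For Pdgfc and Pdgfra it was 237, against 328.3 over all nuclei and 244.1 within populations. For Pdgfa and Pdgfra it was 794, against 783.4 and 713.7. Kitl and Kit were found together in 509 nuclei, against 394.5 over all and 432.5 within populations. After thinning to 5000 UMIs, in 11187 nuclei, the ratio to the number over all nuclei was 3.29 for Vegfc with Kdr, 1.28 for Kitl with Kit, 0.698 for Vegfa with Kdr and 0.577 for Pdgfc with Pdgfra. The ratio to the number within populations was 1.24, 1.13, 0.961 and 0.824 in the same order. For Pdgfa with Pdgfra the thinned ratios were 0.849 and 0.989, over the 11187 nuclei with at least 5000 UMIs. These counts are sparse and describe how often molecules were seen together, and nuclei of deeper reading hold more of every gene. Markers of visceral endoderm were read in every named population, at the levels given above, and the part of free RNA in these counts was not tested.

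Kitl (ENSMUSG00000019966, starts chr10:100015630-100015916, plus strand) had the largest fold of the 8 genes in a named population. It stood at 394 CPM (384 to 405) in the Sfrp5-led cluster, 13.0-fold (12.5 to 13.6) the level of all other nuclei and 4.09-fold that of the next population, haemato-endothelial progenitor-like nuclei at 96.5 CPM. Anterior streak-like nuclei held 73.0 CPM, extraembryonic mesoderm-like nuclei 64.4 CPM and visceral endoderm-like nuclei 31.7 CPM, while the lowest level was 9.01 CPM in epiblast-like nuclei. The Sfrp5-led cluster accounted for 58.1% of all Kitl UMIs with 9.62% of the UMIs of all genes. A UMI was found in 72.2% of its nuclei (median depth 13990 UMIs), or 58.5% after thinning, against 7.13% of epiblast-like nuclei (median 10146).

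Kitl varied within the Sfrp5-led population. With 20 components in place of 30, the peaks split it into a cluster led by Kitl, Eda and Eprn (482 nuclei) and a cluster led by Sfrp5, Pga5 and Rfx6 (446 nuclei). Kitl was at 551.5 CPM in the first and 254.7 CPM (242.7 to 267.1) in the second, which under that setting carries the population's name, so that the fold there was 4.53. Kit ran the other way, at 7.18 CPM in the first and 37.5 CPM in the second, and so did Vegfa, at 43.4 and 65.6 CPM. Pdgfra ran with Kitl in this split, at 41.8 CPM (37.2 to 46.9) in the first and 13.7 CPM (11 to 16.8) in the second. In the clusters from RNA, Kitl was at 597.8 CPM in the Sfrp5-led cluster and 193.7 CPM in a visceral endoderm-like cluster led by 6330411D24Rik, Arid3c and Tfec, against 36.1 and 28.4 CPM in the other visceral endoderm-like clusters, led by Icam1 and by Bmp6. Over these RNA clusters Pdgfra ran in the opposite order, at 23.3, 33.4, 118.9 and 131.3 CPM as listed.

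Kit (ENSMUSG00000005672, starts chr5:75574916-75574955, plus strand) was highest in anterior streak-like nuclei at 98.0 CPM (91.8 to 104.4), 6.70-fold (6.19 to 7.24) the level of all other nuclei. Parietal endoderm-like nuclei followed at 50.5 CPM (2.60-fold), then haemato-endothelial progenitor-like nuclei at 25.8 CPM and the Sfrp5-led cluster at 21.7 CPM, a pair not apart by more than counting error. Visceral endoderm-like nuclei held 7.31 CPM, embryonic mesoderm-like nuclei 6.56 CPM and ectoplacental cone-like nuclei 2.51 CPM from 7 UMIs. A UMI was present in 49.7% of anterior streak-like nuclei (median depth 9981 UMIs) and in 3.96% of ectoplacental cone-like nuclei (median 12515). In the clusters from RNA the signal lay in the cluster led by Pax7, Pkd1l1 and Cer1, at 135.4 CPM, and was 25.4 CPM in the cluster led by the cilium genes Zbbx, Cfap44 and Spef2. Kit and its ligand were therefore highest in different populations, and the anterior streak-like nuclei held both, with Kit at 6.70-fold and Kitl at 1.13-fold (1.04 to 1.22) the level of all other nuclei. Other populations held both as well. Haemato-endothelial progenitor-like nuclei had Kit at 25.8 CPM and Kitl at 96.5 CPM, and the Sfrp5-led cluster had them at 21.7 and 394 CPM.

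Accessibility at the promoters, the peaks from 1000 bases before to 100 bases after the starts, differed less between populations than the RNA did. The starts are those of the deposited matrix, and RefSeq gives starts further upstream for Pdgfra (75151322) and Pdgfa (139000792). In the populations clustered from RNA, 7 of the 8 genes had no population with a promoter at least 2-fold above all other nuclei. The exception was Pdgfrb, at 17.8 CPM (here counts per 1000000 peak counts) in a small primordial germ cell-like cluster (2.17-fold, 1.45 to 3.14 on 58 counts, where 2.5% of all promoters tested were that much higher). Under 9 of 11 alternatives in the filter, clustering, classes, promoter window or unit of counting no gene passed 2-fold, so this call was lost. In some of them no cluster carried that name. Over all 21296 promoters tested, 24.6% were that much higher in some population, against 1 of the 8. Kitl stood at 1.56-fold in the Sfrp5-led cluster, Vegfa at 1.3-fold in visceral endoderm-like nuclei and Kit at 1.18-fold in anterior streak-like nuclei, while the RNA folds in the populations of the same name from the peaks were 13.0, 3.87 and 6.70. The Kit promoter was highest in epiblast-like nuclei, at 1.38-fold. The Pdgfa promoter was below the level elsewhere in the trophoblast populations, where Pdgfa RNA was high. It stood at 0.63 (0.491 to 0.798) in ectoplacental cone-like and 0.826 in extraembryonic ectoderm-like nuclei. The Pdgfra promoter reached 92.1 CPM, 1.91-fold, in parietal endoderm-like nuclei, and its RNA fold in the population of that name from the peaks was 6.13. Some promoters were low: that of Pdgfrb stood at 0.165 of the level elsewhere in visceral endoderm-like nuclei and 0.228 in the Sfrp5-led cluster, that of Vegfc at 0.266 in ectoplacental cone-like nuclei and that of Pdgfc at 0.287 in parietal endoderm-like nuclei.

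**Figure D2:**
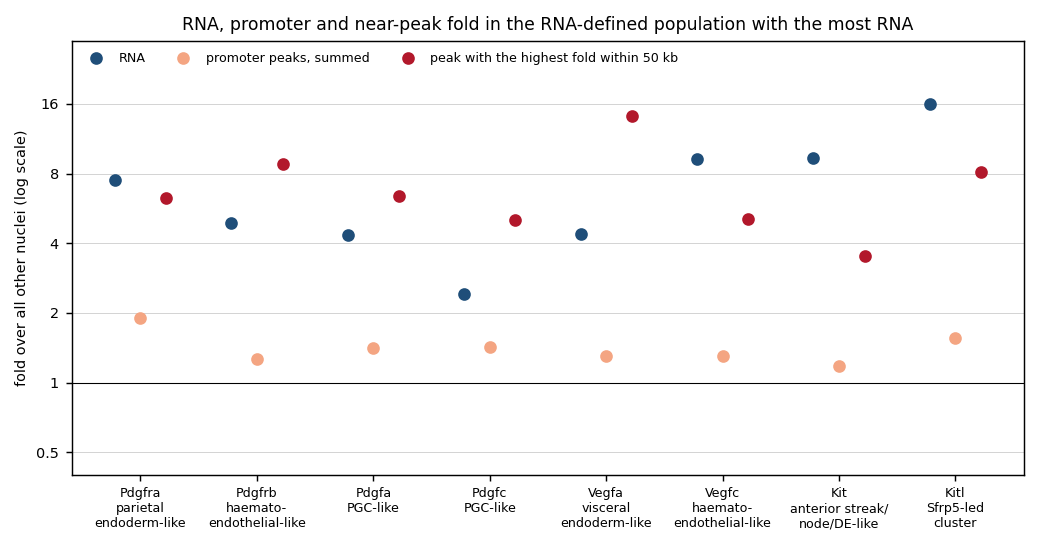
For each gene, in the RNA-defined population where its RNA is highest, the fold over all other nuclei (log axis) of the RNA, of the promoter and of the peak within 50 kb with the highest fold. The promoter folds lie between 1.18 and 1.91 and the RNA folds between 2.40 and 16; the RNA folds are read in clusters made from RNA and are a description, and the peak shown is a maximum over the peaks near the gene, whereas the promoter is a single sum.

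Single peaks were read next. Of the 138 peaks near the 8 genes with at least 100 counts, promoter peaks included, 112 were at least 2-fold higher in some population, against 72.5% of the 222075 peaks tested, so that such a peak is common over the whole set. Distances below are from the outermost start, with a minus sign for upstream in the direction of the gene. Beyond the peaks named by rule (the promoter, the peak with the most counts and the peak with the highest fold in the leading population), peaks given were chosen after their values were seen.

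**Figure D3:**
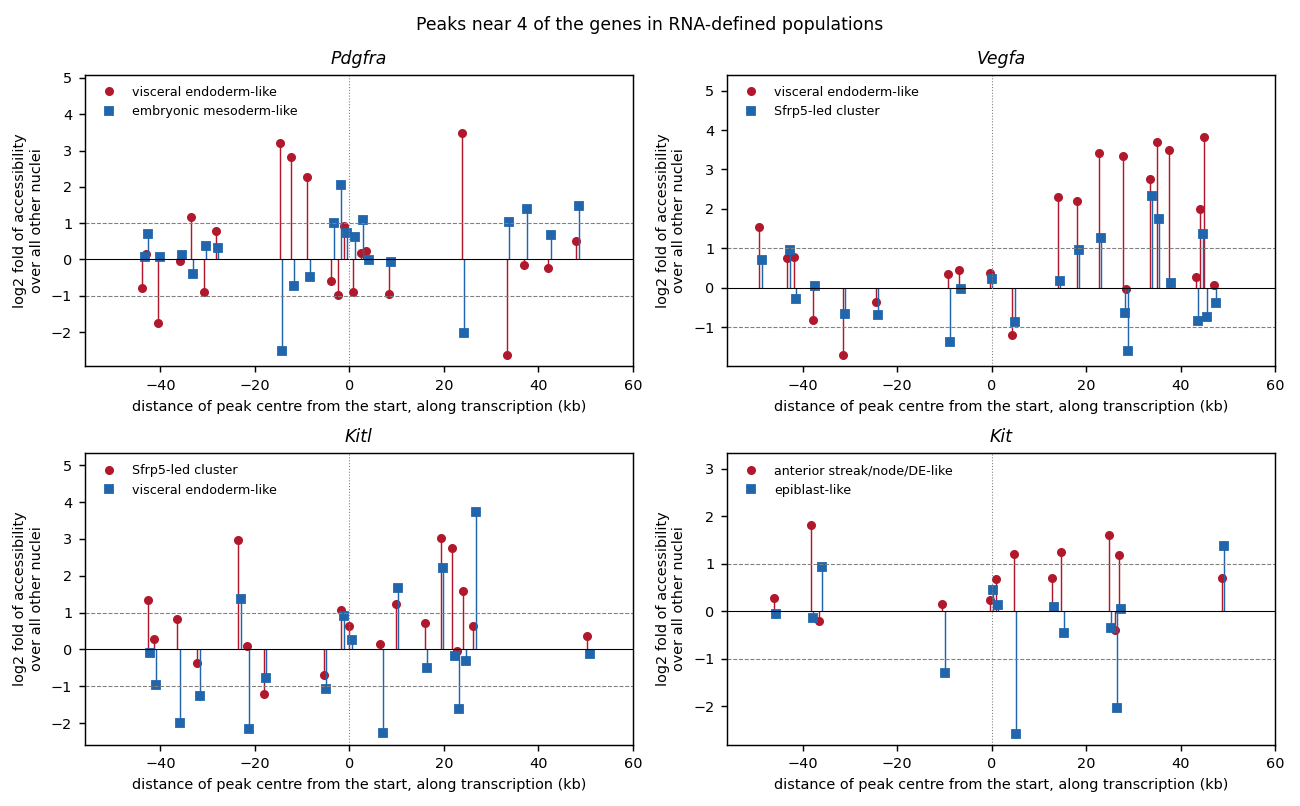
Log2 fold over all other nuclei of accessibility at the peaks near Pdgfra, Vegfa, Kitl and Kit against their distance from the start (kb, negative is upstream), in the populations clustered from RNA. Of the 10 peaks of Vegfa at least 2-fold higher in visceral endoderm-like nuclei, 9 lie downstream of its start, from 14.2 to 45.3 kb. At any distance downstream lie 13 of its 22 peaks. For Pdgfra, 0 peaks are that much higher in both visceral endoderm-like and embryonic mesoderm-like nuclei. Over all peaks such sharing is rare too, at 1.21% of the visceral endoderm-like and 1.53% of the embryonic mesoderm-like ones.

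Pdgfra was high in both mesoderm and endoderm, and its peaks were compared between them. Of its 22 peaks, 5 were at least 2-fold higher in visceral endoderm-like nuclei (12.7% of all peaks tested were) and 6 in embryonic mesoderm-like nuclei (10.0%), and 0 were shared. Sharing between these populations was rare over all peaks too, at 1.21% of those higher in visceral endoderm-like and 1.53% of those higher in embryonic mesoderm-like nuclei. The endodermal peaks included chr5:75175839-75176689 at 24 kb, with 12.2 CPM against 1.09 in all other nuclei (11.2-fold, 8.85 to 14.2), and chr5:75137431-75138248 at -14.5 kb, with 21.9 against 2.37 (9.26-fold). The second of these was also high in parietal endoderm-like nuclei (24.8) and in the Sfrp5-led cluster (16.5), where Pdgfra RNA was low, and stood at 0.980 in embryonic mesoderm-like nuclei. The mesodermal peak with the highest fold, chr5:75149739-75150625 at -2.1 kb, had 58.0 CPM in embryonic mesoderm-like nuclei against 14.0 elsewhere (4.15-fold), and 10.8 in visceral endoderm-like and 8.85 in parietal endoderm-like nuclei. This peak lies nearer to the RefSeq start of Pdgfra, at 75151322, than to the starts of the deposited matrix used for distances and promoters. In parietal endoderm-like nuclei 12 of the 22 were higher (13.7%), of which 3 were shared with visceral endoderm-like (25% of the 12 and 60% of the 5) and 3 with embryonic mesoderm-like nuclei (25% of the 12 and 50% of the 6). Over all peaks higher in parietal endoderm-like nuclei, 53.3% were shared with visceral endoderm-like and 3.4% with embryonic mesoderm-like nuclei. The parietal endoderm-like population is small and some of these peaks rest on few counts.

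At Vegfa, 10 of 22 peaks were at least 2-fold higher in visceral endoderm-like nuclei (12.7% of all peaks were). Of the 22, 13 lie downstream of the start and 9 at or upstream of it. The higher ones were 1 of the 9 and 9 of the 13, the latter from 14.2 kb to 45.3 kb, 8 of them beyond the end of the gene. The highest fold was at chr17:45986652-45987485 (45.3 kb), with 12.5 CPM against 0.878 (14.2-fold, 11.1 to 18.3), and a peak at 35.2 kb (chr17:45996740-45997616) had 33.9 against 2.60 (13.1-fold). A neighbour at 33.8 kb was high in visceral endoderm-like nuclei (34.0) and in the Sfrp5-led cluster (38.9). All 4 peaks higher in the Sfrp5-led cluster (11.9% of all peaks were) were among the 10 (39.7% over all peaks higher in that cluster), and 7 of the 10 higher in parietal endoderm-like nuclei were (53.3% over all peaks).

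At Kitl, 7 of the 19 peaks tested were higher in the Sfrp5-led cluster (11.9% of all peaks were). They included chr10:100034711-100035618 at 19.5 kb, inside the gene (8.10-fold, 5.31 to 12.1, on 65 counts), chr10:99991890-99992806 at -23.3 kb (22.6 against 2.89 CPM, 7.82-fold) and chr10:100037234-100038104 at 22 kb (28.5 against 4.22, 6.75-fold). Of the 7, 3 (42.9%) were also higher in visceral endoderm-like nuclei, against 39.7% over all peaks higher in the Sfrp5-led cluster. In haemato-endothelial progenitor-like nuclei 2 of the 7 were (28.6%, against 8.54%), and 5 of the 19 peaks were higher there in all (9.32% of all peaks were). Of the 19, 6 were higher in anterior streak-like nuclei (9.98% of all peaks were) and 5 in primordial germ cell-like nuclei (9.91%). The peak with the highest fold at this gene was a visceral endoderm-like peak at 26.5 kb, with 10.5 CPM against 0.787 (13.3-fold). In this RNA-defined population Kitl RNA stood at 75.9 CPM, 1.2-fold (1.14 to 1.26) the level of all other nuclei. It differed between the clusters of that population, as given above.

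At Kit, 5 of 13 peaks were higher in anterior streak-like nuclei (9.98% of all peaks were), at -38.0, 5.0, 15, 25 and 27.1 kb. The first of these (chr5:75536563-75537353) had the highest fold, 3.53 (2.40 to 5.06), on 63 counts, and the peak at 25 kb had 5.65 CPM against 1.84 (3.07-fold). The peak at 15 kb, inside the gene, was also 5.21-fold higher in haemato-endothelial progenitor-like nuclei. In parietal endoderm-like nuclei, second in Kit RNA at 84.8 CPM, 1 of the 13 peaks was higher and 7 lower (13.7% and 44.8% of all peaks were). In extraembryonic ectoderm-like nuclei 2 were higher and 7 lower (11.4% and 42.5%). The highest fold there was 10.8, with Kit RNA at 0.197 of the level elsewhere. For the remaining genes the highest peaks in the population of highest RNA were at 13.6 kb for Pdgfrb (8.76-fold in haemato-endothelial progenitor-like nuclei, 92 counts), at 2.0 kb for Vegfc (5.11-fold in the same population, 69 counts), and at -20.4 kb for Pdgfa and -43.0 kb for Pdgfc in primordial germ cell-like nuclei, on 15 and 29 counts. In the first population 5 of 24 peaks of Pdgfrb were higher and 5 lower, and 1 of 5 of Vegfc higher and 1 lower (9.32% and 25.1% of all peaks were). In primordial germ cell-like nuclei 4 of 21 peaks of Pdgfa were higher and 4 lower, and 4 of 12 of Pdgfc higher and 1 lower (9.91% and 28.5%). Single peaks of Pdgfa were also read in the trophoblast populations. In ectoplacental cone-like nuclei 2 of the 21 were higher and 6 lower (9.72% and 45.5%), with a highest fold of 16.5. In extraembryonic ectoderm-like nuclei 3 were higher and 7 lower (11.4% and 42.5%), with a highest fold of 14.5. The peak with the most counts lay at or between the starts for each gene other than Pdgfrb.

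Of 25 other genes of these pathways, 24 had at least 50 UMIs, and 17 of these were at least 2-fold higher in some population (49.6% of all genes were) and 19 at least 2-fold lower (64.6%). Haemato-endothelial progenitor-like nuclei had 9 of the 24 higher (7.13% of all genes), among them Kdr (18.3-fold), Flt4 (22.2-fold), Pdgfb, the ligand that recruits mural cells to vessels (45.8 CPM, 10.8-fold), and Nrp2, a co-receptor (389 CPM, 6.90-fold). Parietal endoderm-like nuclei had 7 of 24 higher (9.72%), led by Epas1, which encodes a hypoxia-inducible transcription factor (292.9 CPM, 59.8-fold). Pdgfd, a ligand of the receptor made from Pdgfrb, was highest in primitive streak-like nuclei at 113.2 CPM. Gab1, an adaptor protein, was highest in ectoplacental cone-like nuclei at 332.7 CPM (3.69-fold). Of the other genes that act inside the cell, Pik3r1, the regulatory subunit of a lipid kinase, was highest in haemato-endothelial progenitor-like nuclei at 142.3 CPM (3.05-fold) and stood at 108.8 CPM in parietal endoderm-like nuclei (2.27-fold). Ptpn11, a phosphatase, had a highest fold of 1.19, Cbl, a ubiquitin ligase, 1.39, Plcg1, a phospholipase, 1.5, Grb2, an adaptor protein, 1.86, and Hif1a 1.14.

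**Figure D4:**
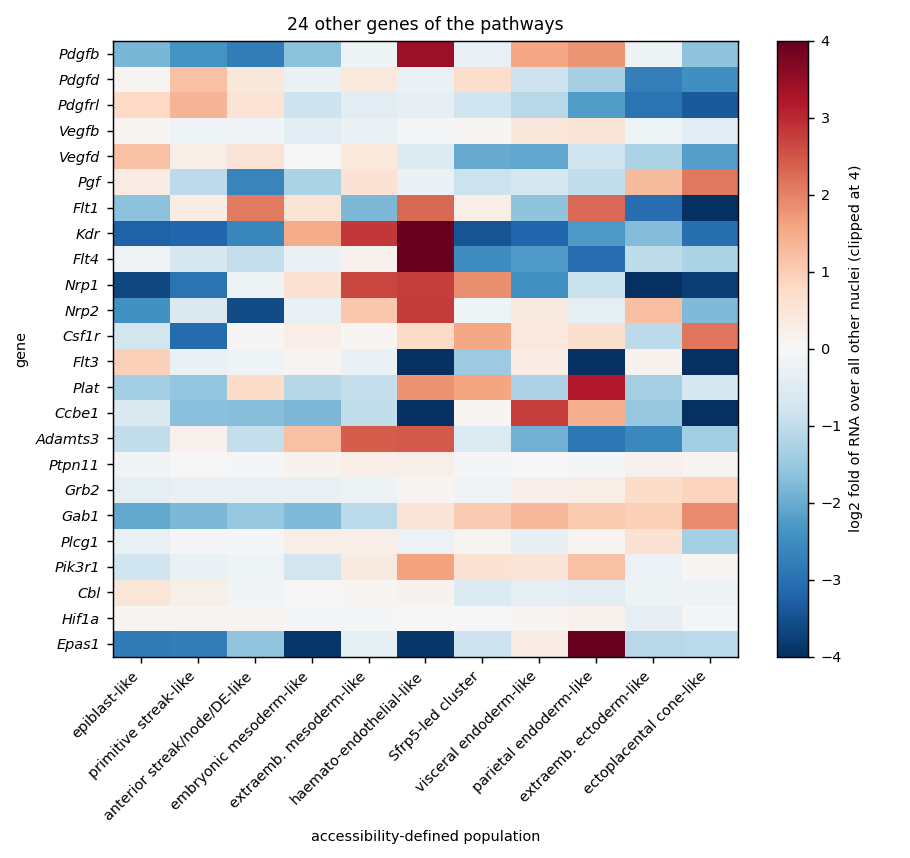
Fold over all other nuclei (colour, log2 scale, limited to 4 in either direction) of the other pathway genes in the populations clustered from the peaks. Haemato-endothelial progenitor-like nuclei have 9 of 24 genes at least 2-fold higher, and Epas1 is 59.8-fold higher in parietal endoderm-like nuclei.

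Genes with the most similar RNA pattern were ranked by the Pearson coefficient of log2(CPM + 1) over the 15 clusters from the peaks, among 12306 genes with at least 500 UMIs. For Pdgfra they were P3h2 (0.896), Gata4 (0.883) and Brd9 (0.855), for Pdgfrb Cdh11 (0.968), Slc2a13 and Sh3rf3, for Pdgfa Med21 (0.887), Sirt6 and Prickle3, and for Pdgfc Chrna7 (0.971), Peli2 and Msi1. For Vegfa they were Cltc (0.972), Zdhhc9 and Sowahb, for Vegfc Fbn1 (0.959), Col4a6 and Nrxn3, for Kit Dhrs3 (0.842), Plekhg1 and Spa17, and for Kitl Pbx2 (0.885), Orai1 and Slc35g2. Among the 8 genes the most similar pairs were Pdgfrb with Vegfc (0.829) and Pdgfc with Vegfc (0.712), and the least similar Pdgfc with Vegfa (-0.541). RNA and promoter accessibility had coefficients from 0.257 for Pdgfa to 0.841 for Vegfc over the same clusters, which were made from the peaks. Over the clusters from RNA the coefficients ran from 0.432 for Kitl to 0.832 for Vegfc. The clusters share 1 library and differ in depth and size, so these coefficients are descriptions.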

How the data were processed

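The data were 1 10x multiome library pair (nuclear RNA and chromatin accessibility) from pooled E7.0 mouse embryos. The authors deposited a matrix of raw counts, UMIs per gene and counts per peak, made with Cell Ranger ARC 2.0.0 on mm10, per the submitters' processing notes; 1 set of peaks covers all nuclei, and peak values are mostly even (86.4%), so intervals use fragments, estimated as the count divided by 2 and rounded up. The 8 genes, the pathway list and the marker lists were chosen with earlier results of these data known.

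Nuclei were kept from 1000 UMIs, 500 genes and 1000 peak counts upwards where mitochondrial genes took no more than 20% of UMIs, and 1154 Scrublet doublet calls (7.52%) were removed, leaving 83.4% of barcodes. Clusters came from 30 components, 15 neighbours and Leiden at resolution 1, separately from RNA (2000 variable genes; 18 clusters) and from peaks (15 clusters), with scanpy 1.11.5 and leidenalg 0.10.2. A cluster was named from marker lists by a scoring rule set after the data were seen, as was the Sfrp5-led cluster; clusters without a name stayed unnamed.

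Levels are summed counts as CPM with exact 95% Poisson intervals, shares have Clopper-Pearson intervals and folds exact conditional binomial intervals (scipy 1.17.1). Intervals and the limit for a count of 0 (3 counts) cover counting error only. A gene counted as higher or lower at 2-fold with at least 50 UMIs, a peak with at least 100 counts. With 1 library per assay no test was possible. Genes named were the 8, the pathway list and, for each of the 8, the 3 genes with the most similar pattern; peaks named by rule were the promoter, the peak with the most counts and the peak with the highest fold in the population of highest RNA. Alternatives changed the filter, doublets, resolution, components, features clustered, depth, windows and unit. Promoter sequences are from RefSeq, GRCm38.p6; distal sequences were not used here.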

Additional observations from a re-analysis of the deposited data

How the results depend on the processing

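No sign of a fold turned under the alternatives run: of 62 recomputed folds of the 8 genes in their highest population, 45 stayed within the counting interval of the reported fold, 17 moved outside it and 62 were at least 2-fold. The ranges were 4.53 to 16 for Kitl, 3.23 to 7.49 for Pdgfra, 6.44 to 9.33 for Kit, 8.27 to 11.7 for Vegfc and 3.23 to 4.39 for Vegfa. A population not named under an alternative gave no value there. The number of genes with a UMI in at least 50% of the nuclei of some population was 4, and 2 after thinning to 5000 UMIs. Of the 138 nearby peaks tested, 110 were at least 2-fold higher in a named population. With unnamed populations counted too the number was 112, where 72.5% of all peaks tested were that much higher. For windows of 25 kb and 100 kb, which hold fewer and more peaks, the counts in a named population were 57 and 203. The counts of peaks in a named population have no share over all peaks beside them, so they describe the settings only. The number of genes with a coefficient above 0.5 between RNA and promoter was 7 with Pearson and 4 with Spearman, and the cause was not tested. These counts of genes are out of 8 and have no share over all genes beside them, so they describe the settings only. Leaving the unnamed clusters out of the nuclei compared with was added after the data were seen. The 2 samples are different assays of the same nuclei, and their readings were joined by nucleus. As there was no replicate library, no paired test was made. With 1 library per assay, differences between embryos could not be measured, and the 981 UMIs of Pdgfrb and the 244 parietal endoderm-like and 177 ectoplacental cone-like nuclei limit the precision there.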

Other observations

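A primordial germ cell-like population of 166 nuclei was named among the clusters from RNA and not among those from the peaks. All 6 markers of its list were at least 1.5-fold higher in it than elsewhere, as were 7 of the 10 primitive streak markers. Of its 10 leading genes by fold, 1 (Ifitm3) is a marker on the germ cell list, and the others include Olfr539, Igfbp3 and Ano5. By the peaks, 45.2% of its nuclei fell in the primitive streak-like and 33.7% in the extraembryonic mesoderm-like population. Germ cell precursors are known to carry Kit and to depend on Kitl from the surrounding cells. In this population Pdgfa stood at 127.4 CPM (4.35-fold the level of all other nuclei), the highest Pdgfa level of any RNA cluster with a name, and Kitl at 102.1 CPM. Kit itself was at 23.3 CPM from 47 UMIs, 1.16-fold the level elsewhere, and Pdgfc at 27.3 CPM. Because RNA defined this cluster, these levels describe it and are no test of it.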
